A study of Mus musculus with 11 samples.

Results

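Macrophages were followed on these arrays through 10 genes that mark the lineage: Adgre1, Aif1, Cd68, Lyz1, Lyz2, Ctss, Itgam, Cd14, Cx3cr1 and Spi1. They were taken by name as general identity genes of the lineage, and every probe whose RefSeq accession belonged to one of them was read. Probes were found for 9 of the 10 genes, 14 probes in all of the 41174 non-control probes on the array, where 17427 genes could be named. No probe was matched to Cd68, which was not analysed here. Adgre1, Aif1, Lyz2, Itgam and Cx3cr1 had 2 probes each, and Lyz1, Ctss, Cd14 and Spi1 had 1.

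The study measured RNA of sorted steroidogenic cells from fetal mouse adrenal glands. The knockout group held 4 Star-/- embryos, which lack the steroidogenic acute regulatory protein that brings cholesterol into mitochondria for steroid synthesis, and the wild-type group held 7 Star+/+ embryos. All were at E17.5 to E18.5, with 1 mouse per array. The adrenal glands were dissociated with trypsin and eGFP-positive cells were taken by fluorescence-activated sorting. The sources used here name neither the promoter that drives the eGFP reporter nor the mouse strain. RNA with an integrity number of at least 7.0 was amplified from 1 ng per mouse and hybridised in 1 colour. All 4 knockout embryos were male, and of the wild-type embryos 3 were male and 4 female.

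Macrophages are phagocytes that reside in nearly every tissue from fetal life onward, clear dying cells and lipid, and sense microbial products. Their identity rests on the transcription factor encoded by Spi1, which binds purine-rich sites that contain GGAA and is needed for the myeloid lineage. In the adrenal gland, macrophages lie between the steroidogenic cells and along the sinusoids. A sorted population can still hold cells of other types, and in bulk RNA of this kind more cells of a type and more RNA per cell cannot be told apart.

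The arrays lay on 3 slides, named here in the order in which they occur. Slide 1 held wild-type 1 and 2 and knockout 1 and 2, slide 2 held wild-type 3 and knockout 3 and 4, and slide 3 held wild-type 4 to 7. Only slides 1 and 2 therefore carry the comparison of genotypes within a slide, and on slide 2 it rests on 1 wild-type array. That array, wild-type 3, was from a female, and every other array of slides 1 and 2 was from a male. Genotype and sex therefore cannot be told apart within slide 2. Between 19070 and 26414 probes per array were well above background. The 75th percentile of the processed signal, to which every array was scaled, ran from 115 to 706. Wild-type 3 had that lowest percentile, and its median correlation with the rest, 0.877, was also the lowest of any array. Star itself measured 3.21 to 7.86 in the wild-type group and 1.58 to 3.27 in the knockout group, and its fitted difference was -4.70 ± 0.93 (SE, limma adjusted p = 0.0559). The sources used here do not say whether its probe lies in the deleted part of the gene.

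Promoter sequences, from 250 bases before to 50 bases after the gene's start, were found in RefSeq (build GRCm38.p6) for 7 of the 10 genes. The promoters of Lyz1 and Lyz2 are shown because the 2 lysozyme genes are close copies of each other and Lyz1 was the member with the smallest p. Lyz1 lies at chr10:117292859-117293038 on the minus strand and Lyz2 at chr10:117282263-117282442 on the same strand. Each stretch runs 5′ to 3′ from 170 bases before the start, with the last 10 bases from the start onward. Capitals mark bases that differ between the genes.
Lyz1: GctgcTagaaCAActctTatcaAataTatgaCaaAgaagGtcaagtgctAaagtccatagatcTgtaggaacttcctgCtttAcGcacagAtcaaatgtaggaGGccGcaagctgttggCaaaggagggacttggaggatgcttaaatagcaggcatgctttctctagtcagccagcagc
Lyz2: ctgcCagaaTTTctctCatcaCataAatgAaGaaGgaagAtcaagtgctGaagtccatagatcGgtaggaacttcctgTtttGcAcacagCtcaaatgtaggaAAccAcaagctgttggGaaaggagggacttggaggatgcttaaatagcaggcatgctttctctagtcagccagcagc
Over the 179 aligned positions 159 bases were identical (88.8%), 20 differed, and 2 positions lay opposite a gap. The differences lay in the upstream part of the stretch, and the bases around the start were the same in both genes.

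Promoters of 2 further members are shown because they hold the core of the site bound by the Spi1 protein, GAGGAA. Ctss lies at chr3:95526616-95526795 on the plus strand and Itgam at chr7:128062470-128062649 on the plus strand, drawn over the same stretch. Capitals mark GAGGAA on either strand.
Ctss: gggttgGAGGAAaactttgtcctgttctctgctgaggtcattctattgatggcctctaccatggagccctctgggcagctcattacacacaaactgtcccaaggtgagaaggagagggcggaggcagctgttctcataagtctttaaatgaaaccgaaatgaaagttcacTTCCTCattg
Itgam: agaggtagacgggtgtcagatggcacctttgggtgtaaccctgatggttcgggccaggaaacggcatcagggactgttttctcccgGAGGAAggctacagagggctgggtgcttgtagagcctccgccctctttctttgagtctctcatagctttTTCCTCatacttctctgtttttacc
A match to GAGGAA on either strand was found in 4 of the 7 promoters, those of Aif1, Cd68, Ctss and Itgam, and in 28.3% of all 32851 promoters of the same length of 300 bases. The longer motif GAGGAAGT, which contains it, was found in Ctss and in 3.2% of all promoters. TATAAA, the core of the TATA box, was found on the minus strand of Ctss and in 13.6% of all promoters. These matches describe letters in the window and were not tested for binding.

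In the knockout group 2 of the 9 measured members rose, Lyz1 and Spi1, and none fell. Lyz1, a secreted lysozyme that cleaves bacterial cell walls, was 22.3-fold higher, and Spi1 went from not well above background in the wild-type arrays to a measured signal in every knockout array. The other members had fitted differences from 1.35 (Cx3cr1) to 3.14 (Ctss) on the log2 scale, and none of these passed the threshold of an adjusted p of 0.05. Differences are knockout minus wild-type from a linear model with slide as a block, and p-values were adjusted over all 20739 features tested. Of those features 0.603% were called higher and 0.231% lower. At an unadjusted p under 0.05, 8 of the 9 members were higher, against 8.39% of all features, and no member was lower. In 8 of the 9 members every knockout array lay above every wild-type array, which held for 4.12% of all features. The median difference of the 9 members was 2.60, and that of all features was -0.16. Spi1 and Itgam, above background on 0 and 1 of the 7 wild-type arrays, passed the filter on dim probes, which asks for 4 arrays, only with their 4 knockout arrays, so they had to differ, and the counts and the median above include them. Of the 7 members above background on at least 3 wild-type arrays, 6 had an unadjusted p under 0.05. With the filter set to 3 wild-type arrays, 1 of these 7, Lyz1, was called.

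The count of 2 moved with the arrays and with the treatment of the slides. It was 0 without wild-type 1, wild-type 3, knockout 1, knockout 3 or knockout 4, 1 without wild-type 2, wild-type 5, wild-type 7 or knockout 2, and 3 without wild-type 4 or wild-type 6. It was 8 when the slide was left out of the model and 0 within slide 1 alone. Calls among all 20739 features moved too, from 173 to 594 without the slide term and 0 within slide 1. Where leaving out 1 array gave a count of 0, only 10 to 31 of all features were called. These zeros are therefore not particular to the members. Without wild-type 3 the comparison rested on slide 1, where the median difference of the members was 2.29.

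**Figure D1:**
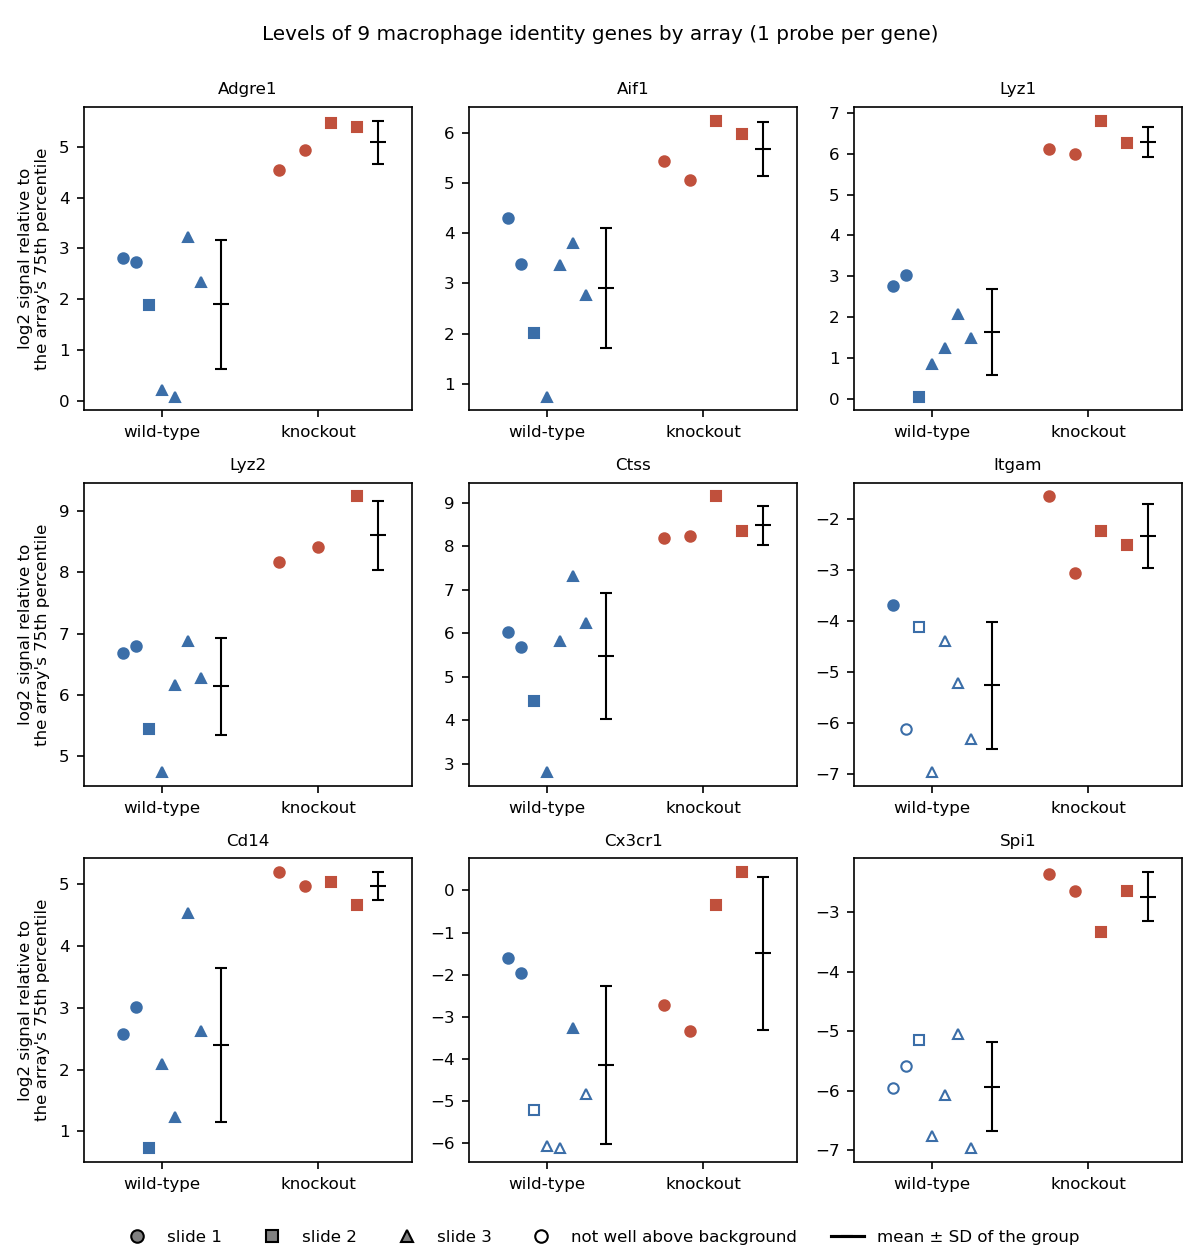
Level of 9 macrophage identity genes on each array, as log2 processed signal relative to the 75th percentile of the array, for 7 wild-type (blue) and 4 knockout (red) arrays. Each gene is drawn by its brightest probe and on its own axis, marker shapes show the slide, open markers are spots not well above background, and bars show the group mean ± SD; the groups are apart in all 9 panels but that of Cx3cr1, and Lyz2 has no value for knockout 4.

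Among the lysosomal and secreted enzymes, Lyz1 was the member with the smallest p. Its levels on knockout arrays 1 to 4 were 6.11, 5.99, 6.81 and 6.26 log2 units above the array's 75th percentile. The wild-type levels ran from 0.058 (wild-type 3) through a median of 1.49 to 3.02 (wild-type 2). All 4 knockout arrays lay close together and above the highest wild-type array. The fitted difference was 4.48 ± 0.63 (SE, adjusted p = 0.0189), and the group means were 1.65 ± 1.05 (SD, n = 7) and 6.29 ± 0.37 (SD, n = 4). Within slide 1 the difference was 3.15 and within slide 2, where wild-type 3 is the only wild-type array, it was 6.48. Leaving out wild-type 1, wild-type 3, knockout 1, knockout 3 or knockout 4 took the adjusted p to between 0.0549 and 0.0871.

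Lyz2 encodes the lysozyme that macrophages and neutrophils carry. Its brighter probe read 8.16, 8.41 and 9.24 on knockout arrays 1 to 3, and the spot of knockout 4 was flagged as an outlier by the scanner software and left out. The wild-type levels of that probe were between 4.73 (wild-type 4) and 6.89 (wild-type 6), with a median of 6.28. The groups did not overlap, and the fitted difference was 2.30 ± 0.64 (SE, adjusted p = 0.127), 1.55 within slide 1 and 3.81 within slide 2, where 1 array of each group was left. The other probe of Lyz2 read 2.61, 2.68, 2.74 and 2.24 in the knockout arrays. In the wild-type arrays it ran from -5.69 (wild-type 5) to -0.52 (wild-type 2), and 4 of the 7 spots were well above background. Tested on its own, this probe had a difference of 4.62 ± 0.78 (SE, adjusted p = 0.0367), where 0.464% of the 25882 probes tested singly were called higher. The 2 probes thus fell on different sides of the threshold. The array designs name the brighter probe by the Lyz2 accession on slide 1 and by another transcript on slides 2 and 3. Because Lyz1 and Lyz2 are near copies, the split of signal between them is uncertain, and binding of a probe to both transcripts was not tested.

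Ctss encodes cathepsin S, a protease that trims the invariant chain in antigen-presenting cells. On the knockout arrays it measured 8.20, 8.23, 9.15 and 8.36. Wild-type levels ran from 2.80 (wild-type 4) through a median of 5.82 to 7.31 (wild-type 6). No wild-type array reached the lowest knockout array, and the wild-type arrays were spread widely, with an SD of 1.45. The model gave 3.14 ± 0.93 (SE, adjusted p = 0.138), 2.35 within slide 1 and 4.32 within slide 2. Without wild-type 4, a slide 3 array that bears on the spread only, the adjusted p was 0.027.

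Of the surface receptors, Adgre1 encodes the adhesion receptor known as the F4/80 antigen, a standard mark of mouse tissue macrophages. Its brighter probe measured 4.55, 4.93, 5.47 and 5.40 in the knockout arrays. The wild-type levels were 0.085 (wild-type 5) at the lowest, 2.35 in the median and 3.22 (wild-type 6) at the highest. Wild-type 4 and wild-type 5 stood below the other wild-type arrays. The fitted difference was 2.60 ± 0.76 (SE, adjusted p = 0.135), 1.97 within slide 1 and 3.54 within slide 2. The other Adgre1 probe was well above background on all 4 knockout arrays and on none of the 7 wild-type arrays. Its knockout levels were -3.74, -3.96, -3.64 and -2.97, at least 1.67-fold above the wild-type group. For such a dim group the bound sets the knockout mean against, on each wild-type array, the higher of the probe's own level and the lowest level among probes well above background.

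Cd14 encodes the co-receptor that hands lipopolysaccharide to Tlr4 and Ly96. Its knockout levels were 5.20, 4.98, 5.04 and 4.66, the narrowest knockout spread among the probes used for the comparison (SD 0.23). The wild-type levels ran from 0.73 (wild-type 3) through 2.59 to 4.54 (wild-type 6). The groups were apart by a small margin, with wild-type 6 just under knockout 4. Knockout exceeded wild-type by a fitted 3.02 ± 0.72 (SE, adjusted p = 0.0899), 2.29 within slide 1 and 4.12 within slide 2. Without wild-type 6, the adjusted p was 0.0387. Its partners did not pass the threshold: Tlr4 differed by 1.57 ± 0.85 (SE) and Ly96 by -0.36 ± 0.49 (SE).

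Itgam encodes the alpha chain of the complement receptor integrin that pairs with Itgb2. Its brighter probe read -1.56, -3.07, -2.24 and -2.52 in the knockout arrays, all well above background. Among the wild-type arrays only wild-type 1, at -3.70, was well above background, and the lowest, wild-type 4, read -6.97 around a median of -5.23. The fitted difference was 2.25 ± 0.76 (SE, adjusted p = 0.175), and it was 2.59 within slide 1 and 1.75 within slide 2. Under normexp background correction it was 0.47 ± 0.51 (SE, limma adjusted p = 0.659). The other Itgam probe was well above background on knockout 1 alone and was not tested. Its groups overlapped. Itgb2, the common beta chain, measured 0.63 to 2.05 in the knockout arrays and -3.34 to -0.89 in the wild-type arrays, with a fitted difference of 2.53 ± 0.54 (SE, adjusted p = 0.0707). Itgax, another alpha chain partner of Itgb2, had a fitted difference of 6.40 ± 1.57 (SE, adjusted p = 0.0957). Itgal, a further alpha chain partner, ran the other way, at -0.80 ± 0.39 (SE, limma adjusted p = 0.305).

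Cx3cr1, the receptor for the chemokine Cx3cl1, departed from the other members in its difference within slide 1. Its level still correlated with the mean of the other members, at 0.783 over the 11 arrays and 0.797 over the 7 wild-type arrays. Its brighter probe read -2.72 and -3.32 in knockout 1 and 2 of slide 1, and -0.35 and 0.43 in knockout 3 and 4 of slide 2. Wild-type 1 and 2 of slide 1 read -1.60 and -1.96, higher than the knockout arrays beside them. Wild-type 6 read -3.27, and the other 4 wild-type arrays, at -6.11 to -4.82, were not well above background. The difference was therefore -1.24 within slide 1 and 5.24 within slide 2, and together 1.35 ± 1.21 (SE, adjusted p = 0.574). The other Cx3cr1 probe gave 0.24 ± 0.48 (SE, adjusted p = 0.832), -0.24 within slide 1 and 0.95 within slide 2. Its groups overlapped as well. The difference between slides was itself past the threshold for Cx3cr1 and for Lyz1 but not for the other 7 members, where 8.02% of all features were called. The ligand gene Cx3cl1 differed by 0.62 (adjusted p = 0.475).

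Aif1 encodes a calcium-binding protein of the actin skeleton that is used to stain microglia and other macrophages. Its brighter probe measured 5.44, 5.06, 6.25 and 5.98 in the knockout arrays. The wild-type levels ran from 0.74 (wild-type 4) through 3.36 to 4.30 (wild-type 1). The fit gave 2.49 ± 0.79 (SE, adjusted p = 0.153), 1.41 within slide 1 and 4.10 within slide 2. The other probe was above background on all 11 arrays and gave 2.68 ± 0.66 (SE, adjusted p = 0.101), 1.51 within slide 1 and 4.42 within slide 2. Both probes kept the groups apart, and neither passed the threshold.

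Spi1 encodes the transcription factor introduced above. Its knockout levels were -2.35, -2.65, -3.33 and -2.64, all well above background. The wild-type levels, between -6.97 (wild-type 7) and -5.04 (wild-type 6) around a median of -5.96, were not well above background on any of the 7 arrays. The knockout group was at least 2.98-fold higher, and at least 2.55-fold when the bound was taken within slides. The fitted difference was 2.83 ± 0.51 (SE, adjusted p = 0.0427), with measured means of -5.93 ± 0.74 (SD, n = 7) and -2.74 ± 0.41 (SD, n = 4). It was 3.27 within slide 1 and 2.16 within slide 2, where it was smaller, unlike most members. Under normexp background correction the difference was 0.36 (adjusted p = 0.719), and leaving out any array other than wild-type 4 or wild-type 6 took the adjusted p above 0.05, to between 0.0517 and 0.214.

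**Figure D2:**
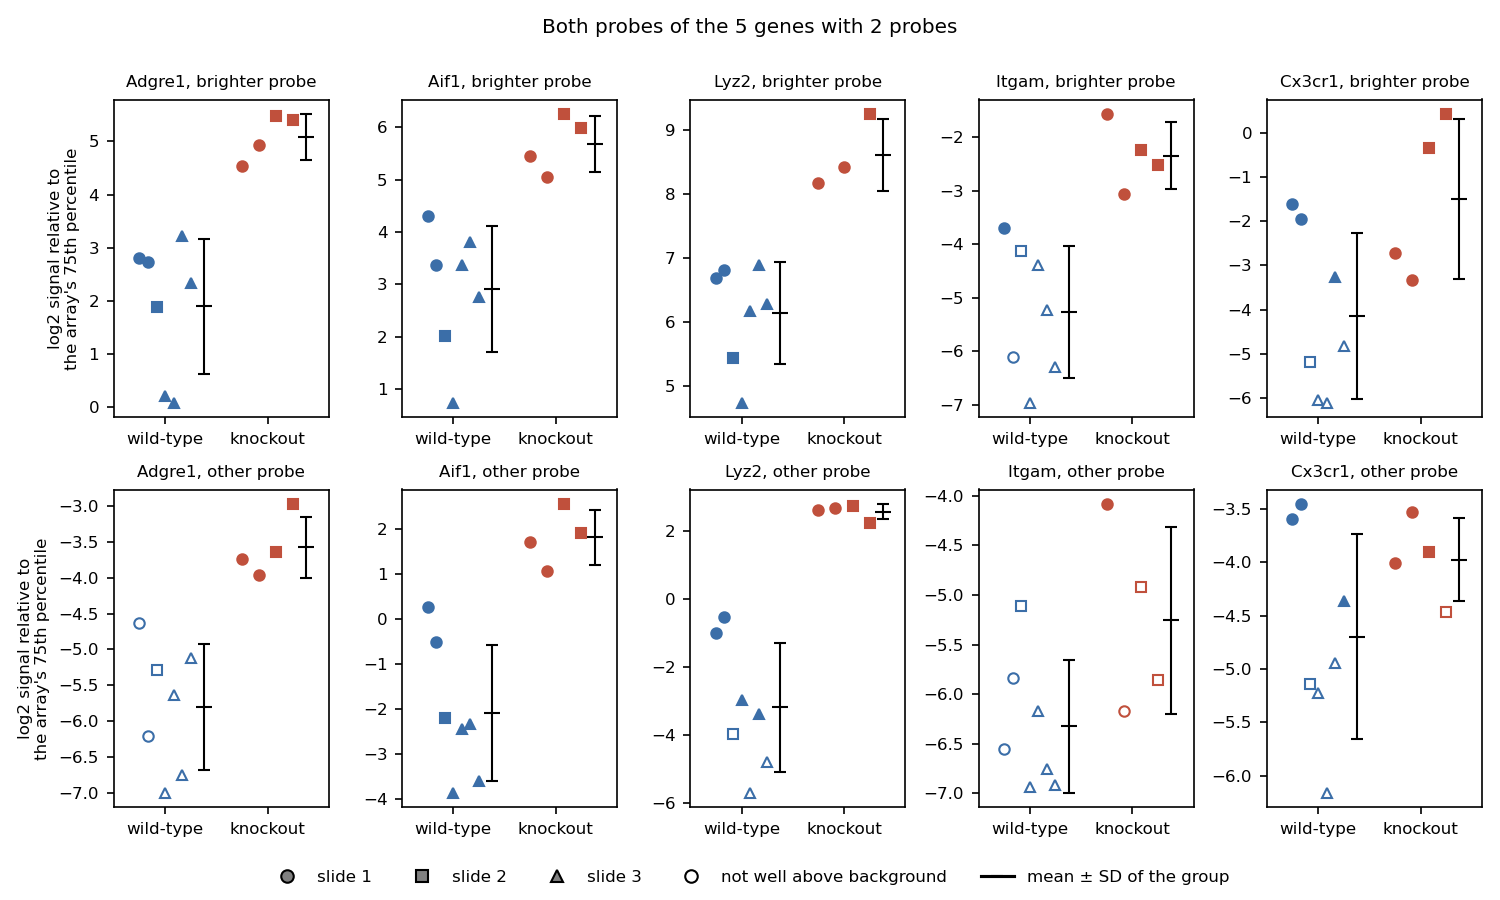
Levels of both probes of Adgre1, Aif1, Lyz2, Itgam and Cx3cr1 on each array, as log2 processed signal relative to the 75th percentile of the array, with the brighter probe above and the other below. Marker shapes show the slide, open markers are spots not well above background and bars show the group mean ± SD; knockout lies apart from wild-type with both probes of Adgre1, Aif1 and Lyz2, and with 1 of the 2 probes of Itgam.

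**Figure D3:**
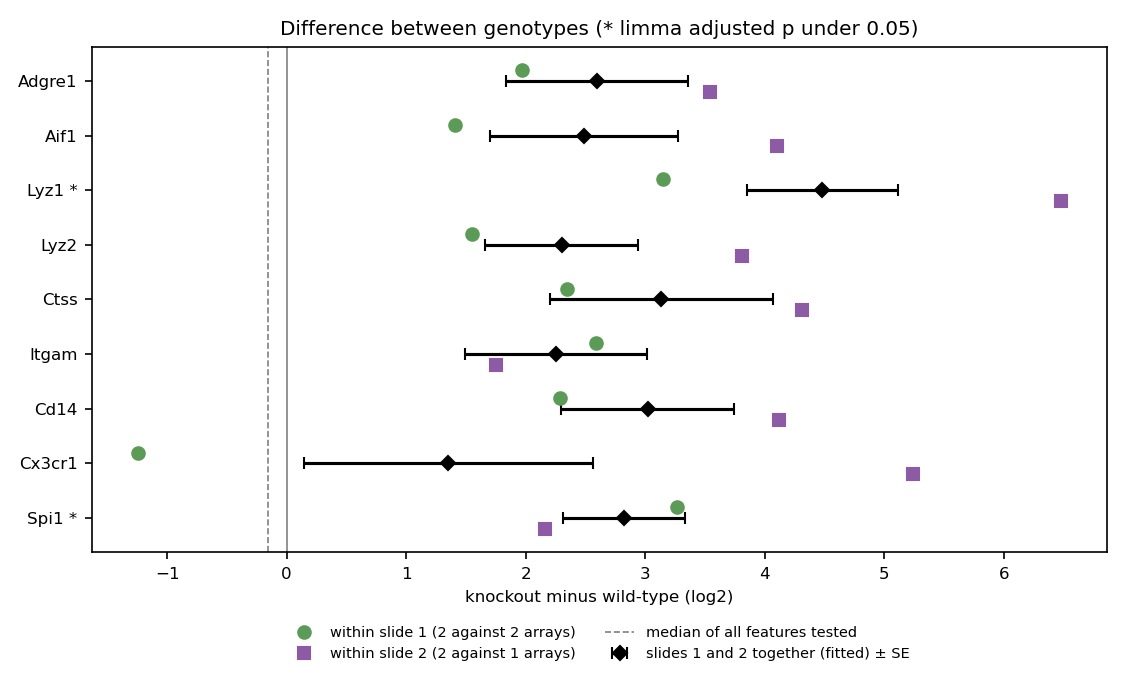
Knockout minus wild-type difference of each member in log2 units. Black diamonds are the fitted values over slides 1 and 2 with their SE, green circles the difference within slide 1 (2 against 2 arrays), purple squares that within slide 2 (2 against 1 arrays, for Lyz2 1 against 1), and the dashed line the median of all features tested at -0.16; Lyz1 and Spi1, marked by asterisks, passed the threshold, and Cx3cr1 is the only member with slides on opposite sides of 0.

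Within the groups, the same arrays recurred at the ends of the members' ranges. Wild-type 6 was the highest wild-type array for 5 of the 9 members and wild-type 1 for 3, while wild-type 4 was the lowest for 4. Among the knockout arrays, knockout 3 was highest for 5 members. All 9 members were well above background on each of the 4 knockout arrays, and 6 to 8 of them on each wild-type array. With sex as a further term in the model no member passed the threshold, and 28 of all 20739 features did. In that fit Lyz1 differed by 3.99 (limma adjusted p = 0.0693) and Spi1 by 3.24 (limma adjusted p = 0.0665).

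**Figure D4:**
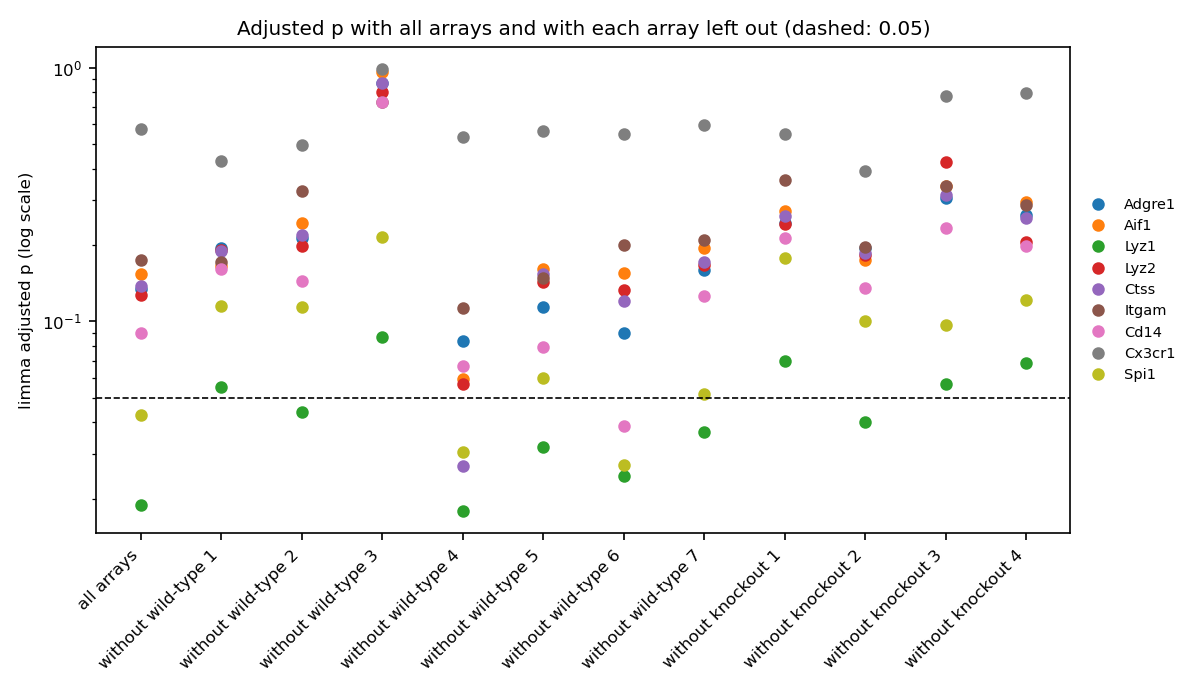
Adjusted p of each of the 9 members (limma, log axis) with all 11 arrays and with each array left out in turn. The dashed line is the threshold of 0.05; Lyz1 and Spi1 lie under it with all arrays, and without wild-type 3 every member lies above it.

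The levels of 13763 named genes outside the list were set against the mean of the members over the 11 arrays by Pearson correlation. Among the genes most like it were Il10ra (0.991), Cxcl16 (0.988), Ms4a7 (0.983), Csf1r (0.982), Syk (0.981), Nrros (0.979) and Ly86 (0.979), and the median gene stood at 0.0197. These coefficients are descriptions, since the 11 points carry the difference between genotypes in common. Ms4a7, a membrane protein of macrophages, differed by 4.01 ± 0.76 (SE, adjusted p = 0.0495) and was the only one of these past the threshold. Il10ra, the receptor chain for interleukin 10, measured 2.02 to 3.82 in the knockout arrays and -4.16 to -0.25 in the wild-type arrays, a difference of 4.30 ± 0.94 (SE, adjusted p = 0.073).

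Genes that work with the members or mark the same lineage were read from lists, also chosen with earlier results known. Of 21 partners of the members, 2 rose and none fell, with a median difference of 1.57. These were the lysosomal proteases Ctsd, at 3.37 ± 0.59 (SE, adjusted p = 0.0374), and Ctsz, at 1.99 ± 0.37 (SE, adjusted p = 0.0462). Csf1r, the receptor that macrophages need for survival, had a difference of 2.69 ± 0.59 (SE, adjusted p = 0.073). Of 14 tested myeloid transcription factors, 1 rose, Batf3, at 2.81 ± 0.45 (SE, adjusted p = 0.0275). The median of that list was 1.96, and Irf5 (3.37), Nr1h3 (2.77) and Cebpa (3.83) had the next smallest p. Batf3 is known for its part in the dendritic lineage.

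Of 15 genes shared by leukocytes 3 rose, Cd48, Cyba and Ptpn6, by 3.66 ± 0.59, 3.47 ± 0.58 and 3.26 ± 0.57 (SE), with a list median of 3.26. Of 23 other macrophage genes 3 rose and the median was 2.97. Gpnmb, a glycoprotein of lipid-laden macrophages, differed by 7.93 ± 0.79 (SE, adjusted p = 0.00347), and Trem2, a lipid-sensing receptor, by 3.92 ± 0.50 (SE, adjusted p = 0.0131). Ms4a7 was the other. Gpnmb was well above background on 2 of the 7 wild-type and all 4 knockout arrays and passed the filter only with the knockout arrays, so it had to differ. With at least 3 wild-type arrays required, 1 of 21 tested genes of the list was called. Not every macrophage gene was higher. Cd163 had a difference of -4.06 ± 1.44 (SE), -6.56 within slide 1 and -0.32 within slide 2. Lyve1 differed by -1.95, Pf4 by -0.82 and Msr1 by -0.13. None of these passed the threshold, and they were singled out after their values were seen because they run against the rest. At an unadjusted p under 0.05 (limma), 16 genes of that list, Gpnmb among them, were higher and 1, Cd163, was lower. Of all features 8.39% were higher at that p. Without wild-type 3 no gene of these lists, or of those of other cell types that follow, passed the threshold, and the medians were 1.19 for the partners, 1.55 for the transcription factors, 1.88 for the leukocyte genes and 1.64 for the other macrophage genes. The count of partners called was 0 without any 1 of 10 arrays and 7 without wild-type 4. The transcription factor and leukocyte counts were 0 without wild-type 1, 2 or 3 or any 1 knockout array, and 4 and 6 without wild-type 4, and the leukocyte count was 1 without wild-type 7. The count of other macrophage genes was 1 without wild-type 1, knockout 1 or knockout 4, and 7 without wild-type 4. With sex as a term the counts were 0, 0, 0 and 1 in that order.

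**Figure D5:**
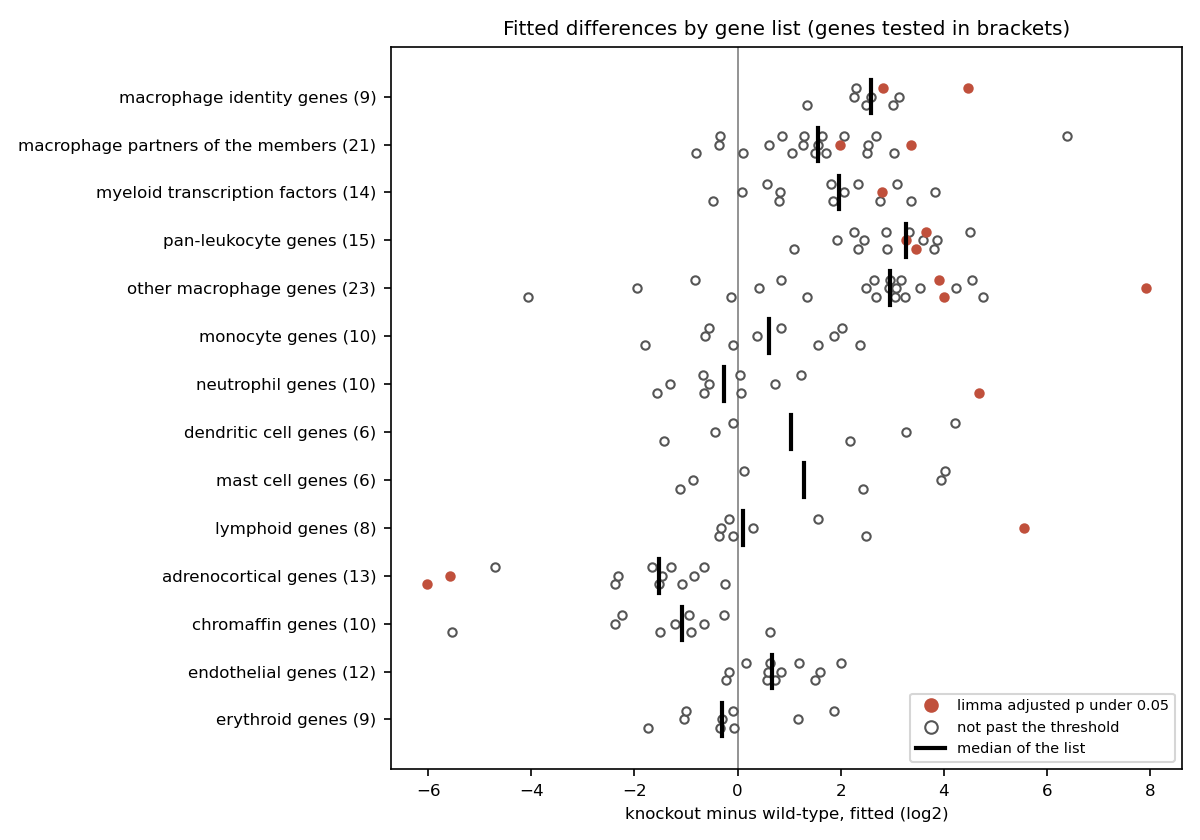
Fitted knockout minus wild-type difference in log2 units for each tested gene, by list, with the number of genes tested in brackets. Filled red points passed the threshold of 0.05 (limma adjusted p), open points did not, and bars are list medians; the macrophage identity genes have a median of 2.60, the pan-leukocyte genes 3.26 and the adrenocortical genes -1.53.

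Several members are also carried by other blood cells, so markers of those cells were read beside them. Of 10 monocyte genes none passed the threshold (median 0.61). At an unadjusted p under 0.05 (limma), 4 of them were higher and none lower, against 8.39% of all features higher. Ccr2, among these, was above background on no wild-type array and passed the filter only with the knockout arrays. With at least 3 wild-type arrays required, 3 of 9 tested had an unadjusted p under 0.05. The summed level of that list ran from 4.21 to 7.89 in wild-type and from 4.71 to 7.30 in knockout arrays. Of 10 neutrophil genes 1 rose, Csf3r, the receptor of granulocyte colony-stimulating factor, by 4.69 ± 0.48 (SE, adjusted p = 0.00397), at least 16.1-fold, while the list median was -0.26. Csf3r was well above background on none of the 7 wild-type arrays and passed the filter only through the 4 knockout arrays, so it had to differ, and with at least 3 wild-type arrays required none of 8 tested genes of the list was called. S100a9, an abundant neutrophil protein, was well above background on all 11 arrays and ran from 5.44 to 7.97 in wild-type and from -0.51 to 8.35 in knockout arrays. The summed neutrophil level ran from 5.68 to 8.22 in wild-type and from 1.33 to 8.78 in knockout arrays.

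Of 8 lymphoid genes tested 1 rose, Il7r, the interleukin 7 receptor, by 5.55 ± 0.88 (SE, adjusted p = 0.0275), with a list median of 0.11. Il7r was well above background on 1 of the 7 wild-type arrays and likewise passed the filter only with the knockout arrays, and with at least 3 wild-type arrays required none of 5 tested genes was called. The lymphoid count was also 0 without wild-type 1 or any 1 knockout array, and with sex as a term. The summed lymphoid level ran from -0.91 to 1.78 in wild-type and from 2.75 to 3.52 in knockout arrays, with no overlap. Of the 15 lymphoid genes on the array 4 were above background on no array. No gene of the dendritic cell list (6 tested, median 1.05) or the mast cell list (6 tested, median 1.28) passed the threshold. At an unadjusted p under 0.05 (limma), 1 neutrophil, 2 lymphoid, 3 dendritic and 0 mast cell genes were higher and none lower. Of all features 8.39% were higher at that p. The neutrophil gene was Csf3r and the lymphoid genes were Il7r and Nkg7. Each of these passed the filter only with the knockout arrays, so it had to differ. The higher dendritic genes were H2-Ab1 (4.22), H2-Aa (3.28) and Ccr7 (2.19), and H2-Aa and Ccr7 passed the filter only with the knockout arrays. The remaining tested genes of the dendritic list ran the other way, Flt3 at -1.42, Zbtb46 at -0.09 and Xcr1 at -0.44, none past the threshold. Of the summed levels, that of the dendritic genes ran from -1.91 to 0.61 in wild-type and from 0.75 to 3.20 in knockout arrays, and that of the mast cell genes from -1.28 to 4.44 and from -1.11 to 4.39.

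The labelled cell type was present in both groups by its own markers. Of 13 adrenocortical genes 2 fell, Nr0b1 with a difference of -5.58 ± 0.89 (SE, adjusted p = 0.0275) and Akr1c18 with one of -6.03 ± 1.15 (SE, adjusted p = 0.0495). All 13 fitted differences were below 0, with a median of -1.53. Star, the targeted gene, is among the 13 and enters that median. Without wild-type 1, 2 or 3 or any 1 knockout array, or with sex as a term, the count of adrenocortical genes called was 0, and without wild-type 5 it was 1. Nr0b1 encodes a repressor of steroidogenic transcription and Akr1c18 an enzyme that inactivates progesterone. The summed adrenocortical level ran from 7.27 to 10.8 in wild-type and from 7.45 to 9.16 in knockout arrays. Chromaffin genes, which mark the adrenal medulla, had a median of -1.07 and endothelial and erythroid genes of 0.68 and -0.30, with none past the threshold in any of the 3 lists. The summed chromaffin level ran from 6.68 to 10.9 in wild-type and from 2.52 to 7.22 in knockout arrays. The summed level of the 9 members ran from 5.41 to 8.36 in wild-type and from 9.07 to 10.49 in knockout arrays. The 9.07 is that of knockout 4, which has no Lyz2 value, so its sum lacks that member. The part that changes in other cell types have in the summed level was not tested.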

How the data were processed

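Single-colour Agilent arrays gave the processed spot intensity deposited by the authors, which Feature Extraction (10.1.1.1 on slides 1 and 2 and 10.5.1.1 on slide 3, per the file headers) had corrected for background. The authors' deposited series table of log2 values matched the scaled scanner values within 0.01 for over 99.8% of probes on each array, and was used as an alternative. Signals were put on the log2 scale, the 75th percentile of non-control probes was subtracted, and outlier spots were dropped. The probe of highest mean stood for each gene if well above background on at least 4 of 11 arrays. Array designs differed by slide, and 4569 probes carry another accession in another design. Symbols came from RefSeq accessions. limma 3.58.1 (R 4.3.3) fitted genotype with slide as a block over all 11 arrays, leaving 7 residual degrees of freedom, with Benjamini-Hochberg adjustment at 0.05, two-sided. No pseudocount was used. Within-slide values are differences of means. A p-value sets a fitted difference against the spread between these mice within genotype and slide, and the number of arrays limits its precision. Slide 3 adds to that spread with wild-type arrays only.

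The members and lists were chosen with earlier results of these data known. Named are all members by every probe, every gene past the threshold and otherwise up to 4 genes of smallest p in each list, Star, and the 8 most alike genes, 1 of which is not reported here. Exceptions are said to be chosen after their values were seen, and partners are given beside their member. All tested dendritic genes are named too, and the lymphoid genes with an unadjusted p under 0.05 (limma). Alternatives varied the slide term, covariates, background correction (normexp with offset 50 on median spot signals), scaling, filter, probe summary, array weights, variance prior and each array. Sequences came from RefSeq promoters, GRCm38.p6. On simulated data with 200 of 20739 genes changed, the test of knockout against wild-type recovered 0% of genes changed 2-fold, 18.2% at 4-fold and 45.5% at 8-fold, with 4 false calls.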

Additional observations from a re-analysis of the deposited data

Results flagged for a closer look

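The Ctss level of knockout 3, 9.15, stood apart from the other 3 knockout arrays, the nearest of which was at 8.36, and the gap took up 0.835 of the group's range. The limit is Dixon's critical value for 4 arrays, 27 groups of member levels were examined, and chance passes about 1 in 20.

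The difference between genotypes differed between slides 1 and 2 for 2 members by limma's interaction term. Sex cannot be told apart from it, since wild-type 3 was from a female and the other arrays of these slides from males. For Lyz1 the difference was larger by 3.33 on slide 2 (adjusted p = 0.0333), and on both slides the knockout arrays lay above the wild-type arrays. For Cx3cr1 it was larger by 6.48 on slide 2 (adjusted p = 0.0272), with the knockout arrays below the wild-type arrays of slide 1 and above the wild-type array of slide 2. Of all features tested 8.02% passed the same test, which rests on 3 residual degrees of freedom and on wild-type 3 as the only wild-type array of slide 2.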

How the results depend on the processing

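The count of 2 members past the threshold was 8 without the slide term. It was 5 with slide as a random block or with slide 3 left out, 6 under normexp and 8 with array weights. With arrays centred on their median, no filter on dim probes, or at least 3 wild-type arrays above background, it was 1. It was 0 within slide 1 or with sex as a term. With 1 array left out it ran from 0 to 3. The median difference of 2.60 was 2.92 without the slide term, 2.29 within slide 1, 4.10 within slide 2, 2.83 with the mean over probes, and 2.29 to 2.79 with 1 array left out. Cx3cr1 changed sign within slide 1 and without wild-type 3 (-1.24 in both) and with array weights (-0.73), and ran from -1.24 to 2.15 with 1 array left out. The cause of these changes was not tested. Counts of features called moved likewise, from 173 to 594 without the slide term, 624 under normexp and 2315 with array weights. They fell to 28 with sex as a term and 0 within slide 1, and ran from 10 to 565 with 1 array left out. The 3 other macrophage genes called, all higher, became 0 within slide 1. They became 15 under normexp and 14 with array weights, and in each of these settings 1 of the genes called was lower.

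With the replicate number as a block in place of slide the count stayed at 2 and the median was 3.07. With the replicate block beside slide the count was 0, and no other feature was called either. Same-numbered arrays had correlations of deviations of 0.183, 0.218, -0.0077 and 0.185, and 2 of 4 correlated best with their own number, so the numbers were not taken as pairs.

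Signal near background limits Spi1, Itgam and Cx3cr1, which were above background on 0, 1 and 3 of the 7 wild-type arrays. Under normexp their differences were 0.36, 0.47 and 0.06.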
